A study of Mus musculus with 16 samples.

Results

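The Toll-like receptors were followed by name through the RNA of abdominal tumors from mice given IL-33 or the control solution. The 10 receptors Tlr1, Tlr2, Tlr3, Tlr4, Tlr5, Tlr6, Tlr7, Tlr8, Tlr9 and Tlr13 were taken by gene symbol, in a choice made with earlier results of these data known. They are 10 of the 22298 genes in the count tables. All 10 had reads and all 10 passed the filter on low counts, so none was left out.

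Toll-like receptors are membrane proteins with which macrophages, dendritic cells, B cells and many epithelial cells detect microbial products and molecules released by damaged tissue. Tlr1, Tlr2, Tlr4, Tlr5 and Tlr6 work mainly at the cell surface and recognise lipids and proteins of microbes. Tlr3, Tlr7, Tlr8, Tlr9 and Tlr13 sit in endosomes, to which the chaperone Unc93b1 carries them, and recognise nucleic acids. Apart from Tlr3, which signals through the adaptor Ticam1, they use the adaptor Myd88, and both routes lead to NF-κB and interferon regulatory factors.

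The tumors grew in 615-line mice of wild-type genotype, 6 weeks old, female or male and matched for sex, after intraperitoneal injection of 500000 cells of MFC, a mouse gastric cancer cell line that forms tumors in this strain. The control group, called vehicle here, received PBS, and the other group received IL-33, an alarmin cytokine of the interleukin-1 family, at 20 μg/kg by intraperitoneal injection every 2 days. RNA was sequenced from 8 tumors of each group after selection for poly(A) tails. The methods give 4 or 5 mice per group for this model and the labels do not tie tumors to mice, so some tumors may share a mouse and the p-values measure the spread between tumors only.

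Total counts per tumor lay between 14139268 and 24290794 in the vehicle group and between 16569613 and 24288893 in the IL-33 group. Of these, between 1534 and 6009 counts per tumor fell on the 10 receptors, except in vehicle tumor 4, where 625 did. That tumor also had the lowest TMM factor, 0.640, and IL-33 tumor 7 the highest, 1.24, while the other 14 lay between 0.895 and 1.10. IL-33 tumor 7 held 1168 CPM (the count divided by the tumor's total count, times 1000000) on 5 uterus and oviduct marker genes, against at most 3.93 in any other tumor. It also held the epithelial markers Epcam and Krt18 at 98.8 and 159 CPM, whereas the other 15 tumors had at most 2.40 and 1.83. Krt8, another keratin of simple epithelium, was high in every tumor, between 181 and 975 CPM, but the other epithelial markers had low medians, from 0 CPM for Cldn4 to 2.17 CPM for Cdh1, and the mesothelial gene Msln lay between 92.5 and 1243 CPM. Which cells the Krt8 reads came from was not tested. The results are for all 16 tumors unless it is said that a tumor was left out.

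No receptor differed between the groups at the significance threshold. In edgeR's quasi-likelihood test with Benjamini-Hochberg adjustment over 16817 genes, 0 of the 10 receptors had an adjusted p under 0.05, and the share of all genes was 0%. At an unadjusted p under 0.05 the count was again 0 of 10, against 11.2% of all genes tested, and DESeq2 called 0 of 10 by either p. The fitted change was above 0 for 8 of the 10 receptors, with a median log2 fold change of 0.23, against a median of 0.06 over all genes. The ranges of the groups overlapped for all 10 receptors, and the share of all genes with such an overlap was not computed.

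Without IL-33 tumor 7 the median log2 fold change of the receptors was 0.31, against -0.01 over all genes, and again 8 of 10 were above 0. Tlr13 then had an unadjusted p under 0.05. This makes 1 of 10 receptors higher and 0 lower at this threshold, against 1.83% and 2.29% of the 15803 genes tested. At an adjusted p under 0.05 the count there was 0 of 10 receptors and 0% of all genes.

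**Figure D1:**
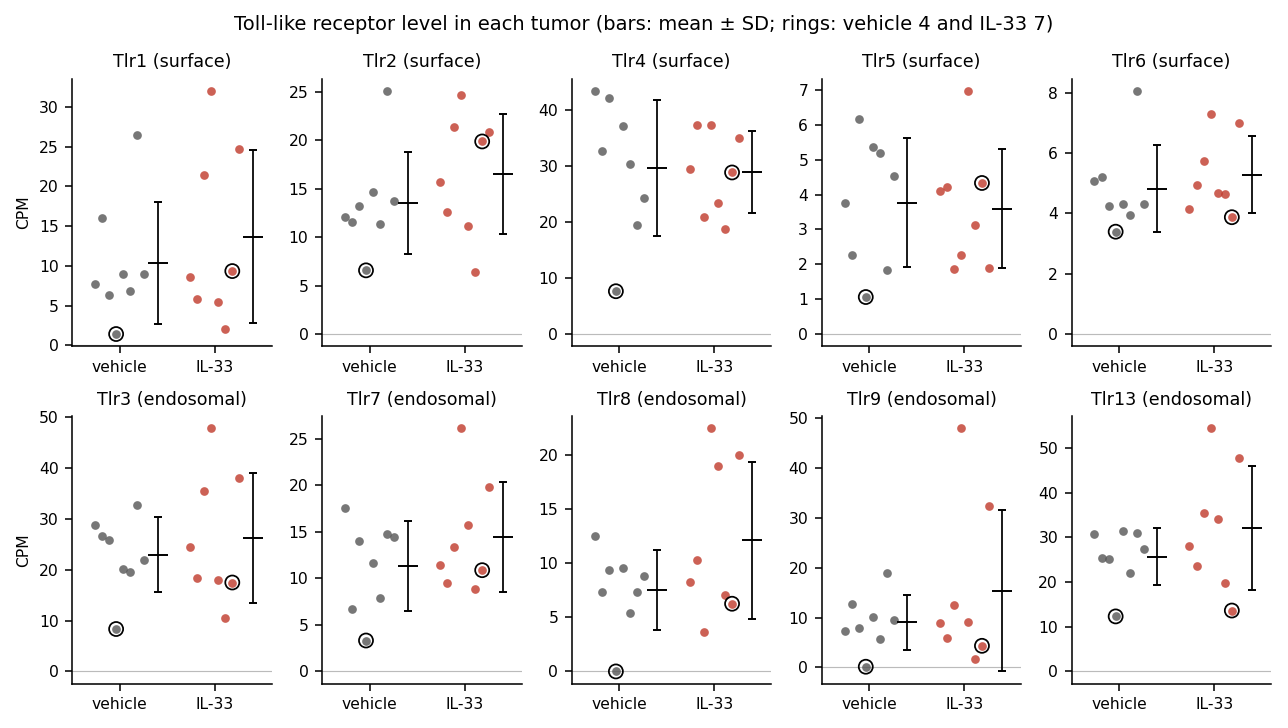
Level of each receptor in CPM (vertical axes, linear, with a separate scale for each receptor) in 8 vehicle tumors (grey) and 8 IL-33 tumors (red), with the mean ± SD beside each group and rings around vehicle tumor 4 and IL-33 tumor 7. The groups overlap for all 10 receptors, vehicle tumor 4 is the lowest tumor for 9 of them, and IL-33 tumor 4 is the highest for 6.

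Among the surface receptors, Tlr2 is the shared partner of Tlr1 and Tlr6 in the recognition of bacterial lipopeptides and is encoded on chromosome 3 (GRCm38, chr3:83836272-83841767, minus strand). Its level in the vehicle tumors had a lowest value of 6.58 CPM, a median of 12.6 and a highest of 25.1. The IL-33 tumors lay between 6.38 and 24.7 CPM with a median of 17.8. The groups overlapped over nearly their whole range, and the highest vehicle tumor, number 7, stood above all IL-33 tumors. The means were 13.5 ± 5.27 and 16.6 ± 6.19 CPM (SD, n = 8 each), with an edgeR log2 fold change of 0.20 ± 0.23 (SE) and an adjusted p of 0.811.

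Tlr1, which joins Tlr2 to bind triacylated lipopeptides, lies at chr5:64924679-64933563 on the minus strand. In the vehicle tumors it ranged from 1.41 to 26.5 CPM with a median of 8.36, and in the IL-33 tumors from 2.00 to 32.0 CPM with a median of 8.99. Of the 10 receptors only Tlr9 spread wider among those detected in every tumor, as the highest Tlr1 value was 22.6-fold above the lowest. IL-33 tumors 3, 4 and 8 were high at 21.5, 32.0 and 24.8 CPM, as was vehicle tumor 7, and the other 5 IL-33 tumors lay below the vehicle mean of 10.4 CPM. The log2 fold change was 0.35 ± 0.50, and it ranged from 0.07 without IL-33 tumor 4 to 0.70 without vehicle tumor 7.

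Tlr6, the partner of Tlr2 for diacylated lipopeptides, lies beside Tlr1 at chr5:64952031-64960097 on the same strand. It was the most even of the receptors, with a 2.37-fold range over the 16 tumors. Vehicle tumors lay between 3.39 and 8.06 CPM with a median of 4.32, and IL-33 tumors between 3.87 and 7.31 CPM with a median of 4.81. The highest was again vehicle tumor 7, and the log2 fold change was 0.06 ± 0.22.

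The coding sequences of Tlr1 and Tlr6 share an identical run of 229 bases, whereas no other pair of the 10 receptors shares more than 16. Of all 100-base windows, 11.3% of the Tlr1 coding sequence occur unchanged in Tlr6 and 11.2% of the Tlr6 coding sequence in Tlr1. The longest run does not hold all of these windows, so the genes share other identical stretches as well. Reads that fall wholly inside such stretches could be split between both genes or dropped. This depends on how the counting treated reads with several matches, which is not given in the sources used here. The first 120 bases of the longest run are shown 5′ to 3′, as part of the sequence in which these receptors cannot be told apart. They come from the GRCm38 transcripts of both genes, all in lower case since the genes do not differ there.
Tlr1 chr5:64925646-64925765 minus strand: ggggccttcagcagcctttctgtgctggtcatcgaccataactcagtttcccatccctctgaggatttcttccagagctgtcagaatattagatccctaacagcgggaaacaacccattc
Tlr6 chr5:64953937-64954056 minus strand: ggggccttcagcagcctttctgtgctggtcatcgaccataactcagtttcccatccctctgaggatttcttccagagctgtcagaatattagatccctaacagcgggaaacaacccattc
The levels of both genes are therefore less certain than those of the other receptors, although their patterns differed over the tumors, with a Pearson r of 0.48 between them.

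Tlr4, the receptor for bacterial lipopolysaccharide together with Ly96 and Cd14, lies at chr4:66827584-66930284 on the plus strand. The vehicle tumors held 7.64 to 43.4 CPM with a median of 31.6, and the IL-33 tumors 18.8 to 37.3 CPM with a median of 29.2. All IL-33 tumors lay inside the vehicle range. The means, 29.7 ± 12.1 and 28.9 ± 7.32 CPM, gave a log2 fold change of -0.09 ± 0.23 with an adjusted p of 0.940 in edgeR. Its sign turned with single libraries, to 0.01 without vehicle tumor 1 and 0.00 without vehicle tumor 3.

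Tlr5, the receptor for bacterial flagellin, lies at chr1:182954788-182976044 on the plus strand and was the scarcest member. It ranged from 1.06 to 6.17 CPM in the vehicle tumors with a median of 4.14, while the IL-33 tumors spanned 1.86 to 6.97 CPM with a median of 3.61. The highest value belonged to IL-33 tumor 5, while IL-33 tumors 3, 4 and 8, which were high for Tlr1, stood at 1.86, 2.28 and 1.89 CPM. The log2 fold change was -0.10 ± 0.37.

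Among the endosomal receptors, Tlr13 recognises bacterial ribosomal RNA and has no counterpart in humans. It is encoded on the X chromosome (chrX:106143204-106160493, plus strand). The vehicle tumors held 12.3 to 31.4 CPM with a median of 26.4, and the IL-33 tumors 13.6 to 54.4 CPM with a median of 31.1. IL-33 tumors 3, 4, 5 and 8, at 35.5, 54.4, 34.1 and 47.7 CPM, stood above every vehicle tumor, and the lowest of each group were vehicle tumor 4 and IL-33 tumor 7. The means were 25.7 ± 6.34 and 32.1 ± 13.8 CPM, with a log2 fold change of 0.26 ± 0.23 and an adjusted p of 0.739 in edgeR.

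Tlr13 was the only receptor with an unadjusted p under 0.05 in any of the 26 fits. Without IL-33 tumor 7 its log2 fold change was 0.40 ± 0.18, with an unadjusted edgeR p of 0.0383 and an adjusted p of 0.964, and DESeq2 gave an unadjusted p of 0.0352. Exact permutation of the group labels (two-sided, on log2(CPM + 0.5)) in the same 15 tumors gave p = 0.134. With vehicle tumor 4 also left out the edgeR p was 0.0631, and the exact permutation test gave p = 0.246.

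Tlr9 detects DNA with unmethylated CpG and is a receptor of B cells and plasmacytoid dendritic cells. It lies at chr9:106222598-106226883 on the plus strand. The vehicle tumors ranged from 0.141 to 18.9 CPM with a median of 8.64, and the IL-33 tumors from 1.73 to 47.9 CPM with a median of 9.06. The medians were thus close, while IL-33 tumors 4 and 8 stood above all others at 47.9 and 32.3 CPM. The lowest was vehicle tumor 4 with 2 counts, and the highest and lowest tumors lay 338-fold apart. The means were 9.01 ± 5.44 and 15.4 ± 16.2 CPM, with the largest log2 fold change of the 10 receptors, 0.72 ± 0.63, and an adjusted p of 0.727 in edgeR. It was 0.25 without IL-33 tumor 4 and 0.54 without vehicle tumor 4.

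Tlr8, a sensor of RNA breakdown products, lies at chrX:167242696-167264329 on the minus strand, next to Tlr7. The vehicle tumors ranged from 0 to 12.5 CPM with a median of 8.09, and the IL-33 tumors from 3.61 to 22.5 CPM with a median of 9.32. Vehicle tumor 4 had 0 of 14139268 counts, which allows a level of up to 0.212 CPM (3 counts, counting error only). IL-33 tumors 4, 5 and 8, at 22.5, 19.0 and 20.05 CPM, stood above every vehicle tumor, and the other 5 IL-33 tumors lay within the vehicle range. The log2 fold change was 0.67 ± 0.56 over all tumors and 0.49 without vehicle tumor 4.

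Tlr7, a receptor for single-stranded RNA, lies at chrX:167304929-167330558 on the minus strand. It ranged from 3.32 to 17.6 CPM in the vehicle tumors with a median of 12.8, while the IL-33 tumors spanned 8.87 to 26.1 CPM with a median of 12.4. IL-33 tumors 4 and 8 stood above the highest vehicle tumor. The means, 11.3 ± 4.85 and 14.5 ± 5.91 CPM, gave a log2 fold change of 0.30 ± 0.27.

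Tlr3, the receptor for double-stranded RNA, lies at chr8:45395665-45411080 on the minus strand. It ranged from 8.35 to 32.7 CPM in the vehicle tumors with a median of 23.9, while the IL-33 tumors spanned 10.5 to 47.8 CPM with a median of 21.4. IL-33 tumors 3, 4 and 8 stood above every vehicle tumor, although the median of the group was the lower of both. The log2 fold change was 0.13 ± 0.26, and it was -0.03 without IL-33 tumor 4.

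When the labels of the 16 tumors were permuted in all 12870 ways, the exact test of the difference in log2(CPM + 0.5) gave p between 0.224 for Tlr8 and 0.971 for Tlr5, where 0.000155 is the smallest p this design allows. Adjusted p in edgeR lay between 0.712 for Tlr8 and 0.963 for Tlr6. For 7 of the 10 receptors the SD was larger in the IL-33 group. The same libraries recurred at the extremes, as IL-33 tumors 4 and 8 were above every vehicle tumor for Tlr3, Tlr7, Tlr8, Tlr9 and Tlr13.

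**Figure D2:**
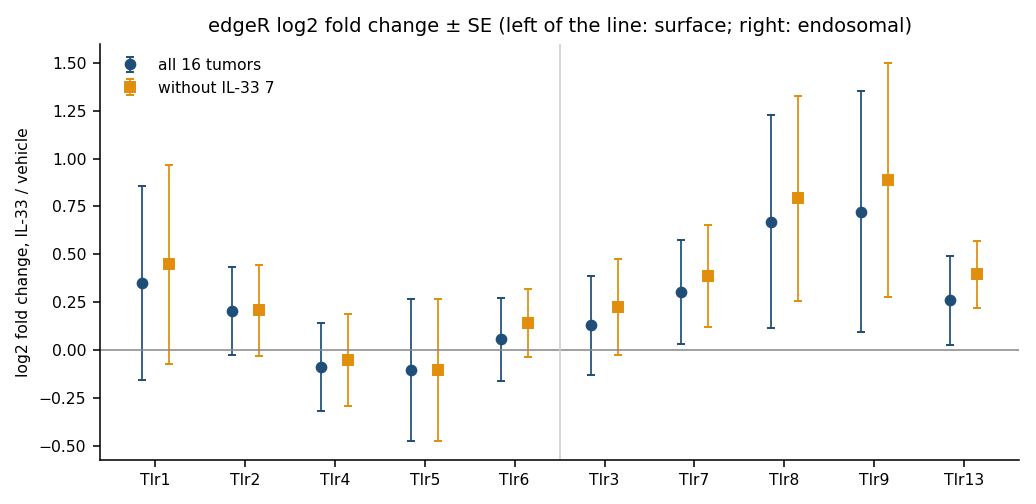
edgeR log2 fold change of IL-33 over vehicle ± SE (vertical axis) for the 5 surface receptors (left) and the 5 endosomal receptors (right), with all 16 tumors (blue circles) and without IL-33 tumor 7 (orange squares). All 5 endosomal receptors lie above 0 in both fits, from 0.13 to 0.72 with all tumors, while Tlr4 and Tlr5 lie below 0.

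To set surface against endosomal receptors, the levels were divided by the length of the annotated exons and summed over the 5 genes of each kind in each tumor. The surface sum was 15.003 ± 4.82 CPM per kb in the vehicle tumors, with a lowest value of 5.11, a median of 16.3 and a highest of 22.3. In the IL-33 tumors it was 17.0 ± 5.98, between 8.01 and 26.9 with a median of 15.8. The groups overlapped, and their means differed by less than the SD of either group.

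The endosomal sum was 17.9 ± 5.93 CPM per kb in the vehicle tumors, between 5.32 and 24.6 with a median of 19.2. In the IL-33 tumors it was 23.8 ± 13.0, between 11.3 and 48.2 with a median of 20.9. IL-33 tumors 4 and 8, at 48.2 and 38.1 CPM per kb, exceeded every vehicle tumor, and the other 6 lay within the vehicle range.

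Per kb of annotated exon, the endosomal share of the whole was above 50% in 15 of 16 tumors. This count depended on the length used. With the longest annotated transcript, the lowest share was 48.7% in the vehicle tumors and 49.2% in the IL-33 tumors without IL-33 tumor 7. The shares that follow are per kb of annotated exon. It was 54.0 ± 2.88% in the vehicle tumors, with a lowest value of 51.0%, a median of 53.4% and a highest of 58.4%. The IL-33 tumors were more spread, at 56.9 ± 7.58%, between 42.4% and 65.4% with a median of 57.1%. IL-33 tumors 4, 5 and 8 stood at 64.2%, 65.4% and 62.5%, above all vehicle tumors, and IL-33 tumor 6 was level with the highest vehicle tumor at 58.4%. On this scale the only tumor with more surface than endosomal receptor RNA was IL-33 tumor 7 at 42.4%, the tumor with uterus and oviduct RNA. Without it the IL-33 share was 58.9 ± 5.24% (n = 7), between 51.8% and 65.4%. No test was made of these sums, which are scores over chosen members.

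**Figure D3:**
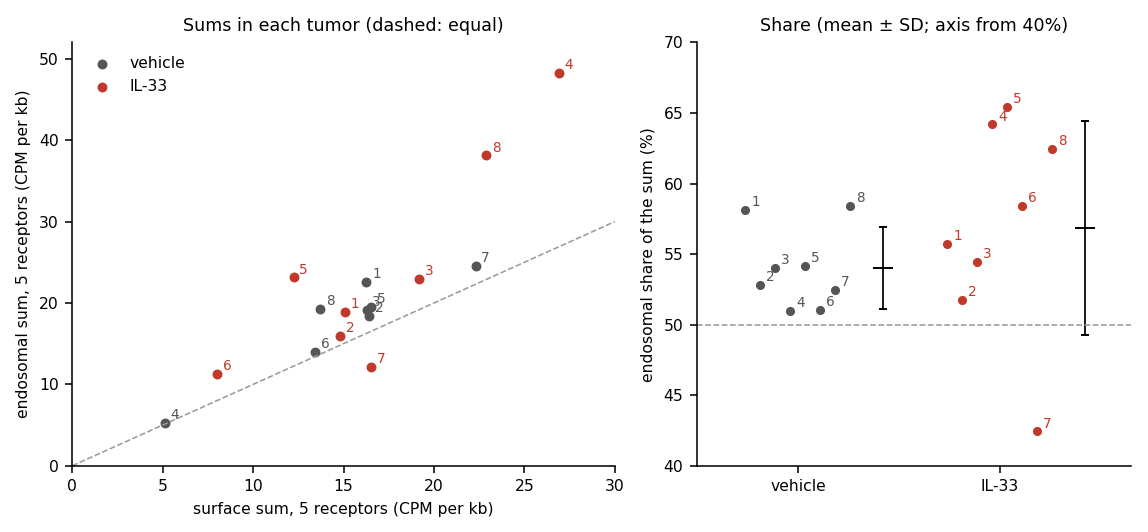
Left, endosomal sum (vertical axis) against surface sum (horizontal axis), both in CPM per kb, for 8 vehicle tumors (grey) and 8 IL-33 tumors (red), numbered by replicate, with a dashed line where both are equal. Right, endosomal share in percent (axis from 40%) with mean ± SD. IL-33 tumors 4, 5 and 8 lie above all vehicle tumors in the share at 62.5% to 65.4%, and IL-33 tumor 7 lies below all at 42.4%.

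Ordered by mean level per length over the 16 tumors, Tlr13 came first at 6.71 ± 2.53 CPM per kb (SD, n = 16) and was the highest receptor in 9 tumors. Tlr4, Tlr2 and Tlr3 followed at 5.27 ± 1.74, 4.99 ± 1.91 and 4.73 ± 1.97. No difference between these neighbours beyond their spread was detected in a two-sided exact sign-flip permutation test of the within-tumor log2 differences over 65536 sign patterns, with adjusted p over the 9 neighbour pairs between 0.0748 and 0.621. The order among them also depended on the length used, as the longest annotated transcript put Tlr4 before Tlr13 and Tlr3 before Tlr2.

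Tlr3 lay above Tlr1, at 3.59 ± 2.77 CPM per kb, in 13 of 16 tumors, by 0.69 ± 0.65 on the log2 scale (exact permutation p adjusted over the 9 pairs 0.00398). Tlr1 was followed by Tlr9 at 3.50 ± 3.48, Tlr7 at 3.16 ± 1.34 and Tlr8 at 2.75 ± 1.68. From Tlr1 through Tlr8, no receptor differed from the next one down in this order at an adjusted p under 0.05. Tlr9 and Tlr7 changed places with the measure used, since Tlr9 had the higher mean but was the higher gene in only 6 of 16 tumors. Tlr6 at 1.36 ± 0.36 was above Tlr5 at 0.769 ± 0.361 CPM per kb in 13 of 16 tumors, again with an adjusted exact permutation p of 0.00398, and Tlr5 was the lowest receptor in 11 tumors. The first 4 and the last 3 places were held by the same receptors in both groups, with Tlr13 first and Tlr8, Tlr6 and Tlr5 last.

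**Figure D4:**
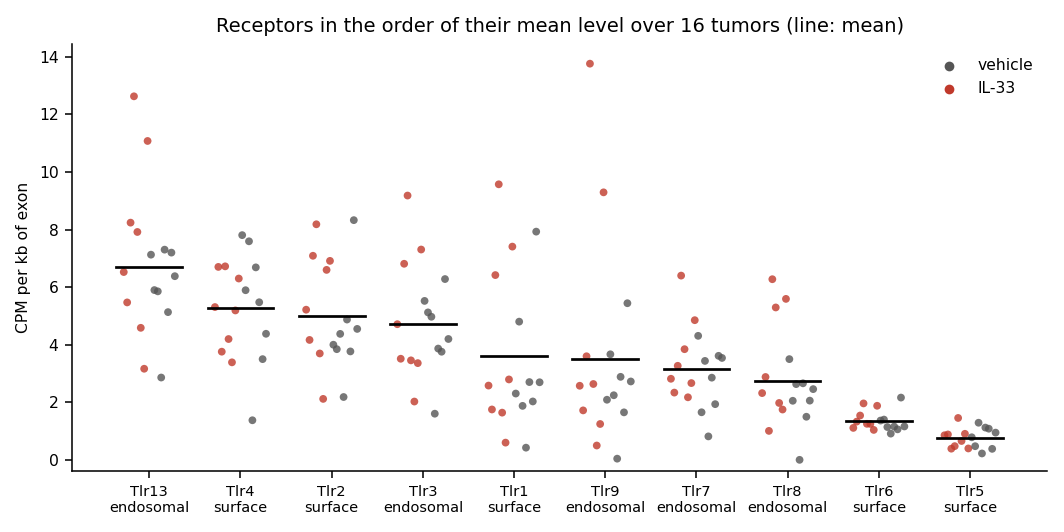
Level of each receptor in CPM per kb of annotated exon (vertical axis, linear) in the 16 tumors, ordered from left to right by the mean (line), with vehicle tumors in grey and IL-33 tumors in red. The means fall from 6.71 for Tlr13 to 0.769 for Tlr5, and the clouds of neighbouring receptors overlap.

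Over the tumors the receptors did not move as a single block. Of the 45 pairs of receptors, 17 had a Pearson r with an adjusted p under 0.05 (permutation of TMM-scaled log2 CPM, 100000 resamples, adjusted over the 45 pairs), 16 of them positive, and 14 held for Spearman's rho as well. All points share the 16 libraries and their scaling. Tlr1 and Tlr3 were the closest pair, with r = 0.90 and rho = 0.82 (permutation p = 1e-05, the smallest that the resampling can give, and 0.00014). Tlr1 and Tlr9 followed with r = 0.88 and rho = 0.87, Tlr1 and Tlr2 with r = 0.87 and rho = 0.81, and Tlr3 and Tlr9 with r = 0.84 and rho = 0.83. Their adjusted permutation p lay at or below 0.00217 for both measures. Without the 2 tumors farthest from the median of the first gene these 4 values of r lay between 0.79 and 0.87, and within each group they lay between 0.71 and 0.96.

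Among the endosomal receptors Tlr7 and Tlr13 were joined at r = 0.74 and rho = 0.86, and Tlr7 and Tlr8, neighbours on the X chromosome, at r = 0.72 and rho = 0.76, with adjusted permutation p of r of 0.0057 and 0.00099 and of rho of 0.0009 and 0.00707. The relation of Tlr8 with Tlr9, r = 0.81 and rho = 0.42 (adjusted permutation p = 0.0107 and 0.195), rested on vehicle tumor 4 and IL-33 tumor 4, since r was 0.29 without both. That of Tlr4 with Tlr8, r = 0.73 and rho = 0.67 (adjusted permutation p = 0.0136 and 0.0192), weakened to 0.44 without vehicle tumor 4. Tlr5 stood against Tlr6 with r = -0.66 and rho = -0.70 (permutation p = 0.00483 and 0.00361, adjusted 0.0145 and 0.0169), and r was -0.61 without vehicle tumors 4 and 7. Tlr5 had no positive relation past the threshold with any other receptor.

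The receptors were then set against the mean log2 CPM of marker lists for 5 cell types, with 50 relations and p adjusted over all of them, of which 11 had an adjusted p of r under 0.05. In whole tumors, fewer cells of a type and less RNA per cell cannot be told apart. Tlr2 followed the 8 macrophage markers most closely, with r = 0.92 and rho = 0.89 (permutation p = 1e-05 and 2e-05, adjusted 0.0005 and 0.001), and r was 0.85 without vehicle tumor 7 and IL-33 tumor 6. Tlr1 followed them with r = 0.79 and rho = 0.77 (adjusted permutation p = 0.00308 and 0.0079). For Tlr3 r was 0.64 and rho 0.59, with adjusted permutation p of 0.0285 and 0.0755, and r was 0.51 without the same pair of tumors. For Tlr9 r was 0.59 and rho 0.75, with adjusted permutation p of 0.0773 and 0.0111, so only the rank relation passed.

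The 5 dendritic cell markers went with Tlr1 at r = 0.90 and rho = 0.82, with Tlr9 at r = 0.81 and rho = 0.85, with Tlr3 at r = 0.78 and rho = 0.70, and with Tlr2 at r = 0.74 and rho = 0.67. Adjusted permutation p for these 4 lay between 0.0005 and 0.00871 for r and between 0.0015 and 0.0297 for rho, and r lay between 0.66 and 0.85 without vehicle tumor 4 and IL-33 tumor 4. The 6 neutrophil markers went the other way, with r = -0.77 for Tlr1, -0.73 for Tlr9, -0.70 for Tlr2 and -0.67 for Tlr3, at adjusted permutation p between 0.00308 and 0.0206. Spearman's rho was -0.72, -0.57, -0.81 and -0.62 in the same order, with adjusted p of 0.0154, 0.0795, 0.005 and 0.0543. Without vehicle tumor 4 and IL-33 tumor 2 the r of Tlr9 was -0.49. Within the neutrophil list Ly6g and Stfa2l1 were at a median of 0.190 and 0.233 CPM, so its summed level, 33.9 to 122 CPM, came mainly from Csf3r, Retnlg and Mmp8. The correlations used the mean log2 CPM and not this sum, so each of the 6 genes had the same weight, the scarce ones included. Which of the 6 carried the relations was not tested.

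Tlr4, Tlr5, Tlr6, Tlr7, Tlr8 and Tlr13 had no relation with any of the 5 lists at an adjusted p under 0.05, and neither the B cell nor the epithelial list had one with any receptor. The size of r depended on the TMM scaling. With CPM on the total count instead, r with the dendritic cell markers rose from 0.55 to 0.82 for Tlr6. It rose from 0.55 to 0.70 for Tlr13 and from 0.56 to 0.68 for Tlr7, but weakened from -0.52 to -0.23 for Tlr5. No p was computed on that scale. For Tlr9 the B cell list gave r = 0.33 and rho = 0.53, with adjusted p of 0.364 and 0.112. Summed CPM ranged from 494 to 1820 for the macrophage list, from 12.0 to 149 for the dendritic cell list and from 1.48 to 62.9 for the B cell list, and each range overlapped between the groups. In the dendritic cell list Itgax was the most abundant, at a median of 28.6 CPM. The medians of Zbtb46, Clec9a, Xcr1 and Flt3 were 9.58, 2.87, 0.818 and 0.499 CPM. The plasmacytoid dendritic cell markers Siglech, Ccr9 and Klk1 together reached 0.0707 to 9.82 CPM, with the lowest value in vehicle tumor 4, where Siglech and Klk1 were at 0, and the highest in IL-33 tumor 4. Vehicle tumor 4, the lowest for 9 receptors, had the lowest dendritic cell sum and the highest neutrophil sum. Of the neutrophil sum Retnlg alone held 85.9 CPM, while Csf3r and Mmp8, at 17.3 and 7.64 CPM, lay below their medians of 28.4 and 9.57. Among the macrophage markers it had the lowest Adgre1, Csf1r and Mertk but C1qa and C1qb above their medians. The part of these cell types in the receptor levels was not tested.

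RefSeq promoter windows (GRCm38.p6) were at hand for 8 of the 10 receptors, all but Tlr4 and Tlr7, in 10 windows since Tlr1 and Tlr6 have a pair each. In the 250 bases before the start, on both strands, the letters GAGGAAG, the core bound by PU.1-type factors of myeloid and B cells, occur in 3 of these 10 windows, those of Tlr9 and Tlr13 and one of the pair of Tlr1, and in 10.6% of the 32851 windows of all genes. The other Tlr1 window, chr5:64932700-64932949, does not hold them. The octamer ATGCAAAT occurs in Tlr9 and in 1.6% of all windows. The windows shown are those that hold the first motif, chosen for it after the search. Over the tumors these receptors had r = 0.88 for Tlr1 with Tlr9, 0.70 for Tlr9 with Tlr13 and 0.58 for Tlr1 with Tlr13, the last with an adjusted permutation p of 0.0445 for r and 0.0511 for rho (0.59), and other pairs such as Tlr1 with Tlr3 were closer. The sequences run 5′ to 3′ along the gene's own strand and end at or before the gene start of the GENCODE M21 annotation, with these motifs in capitals.
Tlr1 chr5:64933564-64933808 minus strand: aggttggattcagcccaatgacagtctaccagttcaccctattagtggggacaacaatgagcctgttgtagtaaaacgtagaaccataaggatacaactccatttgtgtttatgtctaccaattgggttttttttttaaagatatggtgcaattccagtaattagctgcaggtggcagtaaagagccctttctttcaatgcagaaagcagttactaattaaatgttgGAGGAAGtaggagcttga
Tlr9 chr9:106222348-106222597 plus strand: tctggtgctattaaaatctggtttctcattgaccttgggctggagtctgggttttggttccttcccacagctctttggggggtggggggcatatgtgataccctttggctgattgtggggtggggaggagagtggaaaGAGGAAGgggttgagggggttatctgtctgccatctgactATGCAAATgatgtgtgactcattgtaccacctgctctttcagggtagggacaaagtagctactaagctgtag
Tlr13 chrX:106143025-106143203 plus strand: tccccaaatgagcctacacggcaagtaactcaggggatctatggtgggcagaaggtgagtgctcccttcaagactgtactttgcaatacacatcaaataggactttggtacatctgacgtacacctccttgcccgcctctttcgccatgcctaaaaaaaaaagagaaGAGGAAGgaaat
Tlr3, the closest companion of Tlr1, has neither motif in its window. All 250 bases of that window, and of the Tlr1 window without the first motif, lie within the GENCODE M21 gene. They are therefore not like the windows shown, which begin before the gene start. A loose NF-κB-type pattern is found in Tlr2, Tlr3, Tlr5 and Tlr6 and in 45.8% of all windows, and an element of the interferon regulatory factor type in Tlr6 and in 2.98%. The latter lies only in the Tlr6 window chr5:64959167-64959416, of which all 250 bases are also within the GENCODE M21 gene. No overlap between these motifs was present in the sequences printed. A match describes letters only.

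The genes most like each receptor over the 16 tumors were sought by Spearman's rho among 13099 genes with a mean of at least 1 CPM. Tlr9 was nearest to Nckap1l, a regulator of actin in blood cells, with rho = 0.97, to Was, the Wiskott-Aldrich protein of the same cells, with rho = 0.96, and to H2-T24 with rho = 0.96. Tlr1 was nearest to Ctsc and Myo1f, both with rho = 0.96, and Trim21 with rho = 0.94. Tlr3 was nearest to Tgtp2, an interferon-induced GTPase, with rho = 0.96, and to Lmnb1 and Srsf1 with rho = 0.95. Tlr13 was nearest to the interferon-induced Ifi206 and to Trim30a, both with rho = 0.94, and Ms4a4b with rho = 0.94.

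Tlr7 shared its nearest gene, Ifi206 with rho = 0.87, with Tlr13, followed by Rnf213 and Lgals3bp with rho = 0.86 and 0.84. Tlr4 was nearest to D10Wsu102e, Itpripl2 and Lmbrd2 with rho = 0.94, and Tlr5 to Sulf2, Clec1a and Lhfp with rho between 0.91 and 0.92. For Tlr2 near genes were Zfp213 and Map3k11, both with rho = 0.89, for Tlr6 Relt and Tma16 with rho of 0.88 and 0.87, and for Tlr8 Atm, Gemin5 and Ttc37 with rho between 0.88 and 0.89. Nothing beyond this likeness of pattern is implied, and the search covered all genes for the largest value.

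The other genes of the pathway were counted from lists of 57 genes, of which 56 were tested and only Il12a, a subunit of interleukin-12, was not. In edgeR 0 of them had an adjusted p under 0.05, 1 was higher and 0 were lower at an unadjusted p under 0.05, against 9.99% and 1.17% of all genes tested, and the median log2 fold change was 0.04. Without IL-33 tumor 7 the counts were 0 higher and 1 lower, against 1.83% and 2.29% of all genes. The 1 higher gene was Cd36, a scavenger receptor that assists Tlr2. It lay between 8.89 and 33.6 CPM in the vehicle tumors and between 8.65 and 409 in the IL-33 tumors, and its log2 fold change of 1.49 fell to 0.30 without IL-33 tumor 7. The 1 lower gene without that tumor was Bgn, a matrix proteoglycan described as a ligand of Tlr2 and Tlr4, with a log2 fold change of -1.08 there and an unadjusted edgeR p of 0.0190, against -0.39 over all tumors.

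Of the remaining mouse Toll-like receptors, Tlr11 and Tlr12, which detect a profilin of parasites, were almost silent, at 0.342 ± 0.540 and 0.256 ± 0.498 CPM in the vehicle tumors and 0.643 ± 0.952 and 0.215 ± 0.327 CPM in the IL-33 tumors. Of the 6 co-receptors 4 were above 0 in log2 fold change, 3 without IL-33 tumor 7, and the most abundant was Cd14, with vehicle tumors between 80.5 and 248 CPM and IL-33 tumors between 67.1 and 183. Of the 7 folding and trafficking genes 2 were above 0, and 3 without that tumor. The lysosomal protease Ctsl, which processes endosomal receptors, was both the most abundant and the one with the smallest p, at a log2 fold change of -0.38 and an unadjusted edgeR p of 0.174.

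All 6 adaptors were above 0 over all tumors, but 5 of 6 without IL-33 tumor 7, where Sarm1, at 0.107 and 0.356 CPM on average in the groups, turned from 1.32 to -0.35. The common adaptor Myd88 lay at 24.6 to 95.0 CPM in the vehicle tumors and 29.2 to 98.9 in the IL-33 tumors, with a log2 fold change of 0.21 ± 0.23. Pik3ap1, the adaptor with the smallest p, ranged from 4.53 to 114 CPM and from 17.8 to 176, with a log2 fold change of 0.66 ± 0.48. Of the 10 kinases and ubiquitin ligases 5 were above 0, with 7 without IL-33 tumor 7 and 2 without vehicle tumor 4. Traf6, the ubiquitin ligase downstream of Myd88, had the smallest p at a log2 fold change of 0.26 ± 0.18, and Tab2 was the most abundant at 0.03 ± 0.14, or -0.05 without vehicle tumor 4.

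Among the 3 interferon regulatory factors Irf3, which acts downstream of Tlr3 and Tlr4, had a log2 fold change of -0.41 ± 0.22 with an unadjusted edgeR p of 0.0762, and it was -0.13 without vehicle tumor 4. Irf7, the factor downstream of Tlr7 and Tlr9, had 0.27 ± 0.41, with IL-33 tumors both above and below all vehicle tumors. Among the 5 inhibitors 2 were above 0, but 4 without IL-33 tumor 7. Sigirr had -0.53 ± 0.35, or -0.09 without vehicle tumor 4, and Tollip, the most abundant, -0.02 ± 0.16, or 0.07 without IL-33 tumor 7. Of the 13 inducible target genes tested 9 were above 0, and 10 without IL-33 tumor 7, with 0.64 ± 0.47 for the chemokine Ccl5 and -0.13 ± 0.37 for Ptgs2, the inducible prostaglandin synthase, which was 0.04 without that tumor. Of the 6 genes for endogenous ligands 2 were above 0, with 1 without that tumor and 4 without vehicle tumor 4. S100a9, a neutrophil protein that activates Tlr4, had a log2 fold change of -1.32 ± 0.67 and an unadjusted edgeR p of 0.0648, and the log2 fold change became 0.09 without vehicle tumor 4, where it stood at its highest, 249 CPM. Hmgb1, the most abundant of the ligand genes, had 0.02 ± 0.16.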

How the data were processed

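Poly(A)-selected RNA of 16 tumors was sequenced, 8 per group. The authors deposited raw counts of reads per gene without normalization, and the submitters' processing notes name HISAT2, featureCounts and mm10, while annotation release, use of strand and treatment of reads with several matches are not given in the sources used here. Gene identifiers were paired with GENCODE M21 (GRCm38), which named 22255 of 22298. Groups and replicate numbers came from the sample titles.

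Genes with at least 10 counts over all tumors were tested with edgeR 4.0.16 (R 4.3.3), using TMM factors, the quasi-likelihood F test and Benjamini-Hochberg adjustment, with the SE taken as the log2 fold change divided by the square root of F. CPM refer to the total count, levels per kb to the union of annotated exons, and correlations to TMM-scaled log2 CPM with a prior count of 2 and 100000 permutations. Single receptors were tested by exact permutation with SciPy 1.17.1 and NumPy 2.4.6, and levels per kb by sign flips of log2(CPM per kb + 0.05). The fits were tested on simulated counts with known fold changes. How many of those changes were recovered at the spread of these tumors is not reported here.

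All 10 receptors are named, and of each pathway list the gene with the smallest p and the most abundant one. Bgn, Il12a, Sarm1, Tlr12 and the other marker genes named singly were chosen after their values were seen. The 3 genes with the highest Spearman's rho were taken for each receptor, and some of them are not reported here. The receptors and lists were chosen with earlier results of these data known. Alternatives were DESeq2 1.42.0, upper-quartile factors, limma 3.58.1 voom with sample weights, 2 other filters, a robust fit, other pseudocounts and lengths, the replicate number as a block, and each tumor left out in turn. Fits without both vehicle tumor 4 and IL-33 tumor 7, DESeq2 without IL-33 tumor 7 and the order by the longest transcript were added after the data had been seen. Strand was not given, so reads of overlapping or antisense genes cannot be told apart. Intervals and limits cover counting error only.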

Additional observations from a re-analysis of the deposited data

Results flagged for a closer look

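In the vehicle group, tumor 7 lay far above the other 7 tumors for Tlr2 and for Tlr6. For Tlr2 it stood at 25.1 CPM with the next tumor at 14.7, a gap that takes 0.562 of the group's range, and for Tlr6 at 8.06 CPM with the next at 5.21, a gap of 0.611 of the range, both past Dixon's limit for 8 tumors. These were 2 of 26 groups of values examined, and chance alone gives about 1 in 20. The same tumor held the highest summed level of the macrophage markers, 1820 CPM, and of the T cell markers, 60.0 CPM, and the part of these cells in the Tlr2 and Tlr6 values was not tested. Without vehicle tumor 7 the log2 fold changes were 0.37 for Tlr2 and 0.18 for Tlr6, and both kept an unadjusted edgeR p above 0.05.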

How the results depend on the processing

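At an adjusted p under 0.05 no receptor was called in any fit, and no gene except 1 with DESeq2 without IL-33 tumor 7. At an unadjusted p under 0.05, 1876 genes were called over all tumors, against 691 with DESeq2, 966 with limma voom, 640 with edgeR's filterByExpr, 659 without vehicle tumor 4 and IL-33 tumor 7, and 678 with DESeq2 without IL-33 tumor 7. Leaving out each tumor gave 651 (without IL-33 tumor 7) to 2163. The count of receptors at that threshold was 0, except 1 (Tlr13) without IL-33 tumor 7 in edgeR and 1 in DESeq2.

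When single tumors were dropped, the fitted log2 change of Tlr4 ran from -0.21 to 0.0062, of Tlr5 from -0.34 to 0.028, of Tlr6 from -0.0014 to 0.18 and of Tlr3 from -0.028 to 0.23, so these signs are not settled. The difference of mean log2(CPM + 0.5) ran from -0.024 to 0.58 for Tlr1, -0.17 to 0.17 for Tlr4, -0.20 to 0.10 for Tlr5 and -0.061 to 0.29 for Tlr3. For Tlr4 it was 0.07 with CPM on the total count and -0.017 with TMM factors. Tlr2, Tlr7, Tlr8, Tlr9 and Tlr13 stayed above 0 in every fit tried.

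Same-numbered tumors deviated together with correlations from -0.386 to 0.394, and only 2 of 8 vehicle tumors matched best with their own number, so the numbers were not taken as pairs. With the replicate number as a block, 318 genes had an unadjusted p under 0.05 and 0 of 10 receptors did, and no other call changed. Per kb of exon, the mean surface sum, endosomal sum and endosomal share stayed higher in the IL-33 group whichever tumor was left out. The differences were 0.532 to 3.23 CPM per kb, 2.50 to 7.79 CPM per kb and 1.63 to 4.91 percentage points. The surface sum was not higher by every measure. Over all tumors its median per kb was 15.8 in the IL-33 group against 16.3 in the vehicle group. Without division by length and without vehicle tumor 4, its means were 68.0 and 68.1 CPM in the same order. Only Tlr8 and Tlr9 in vehicle tumor 4 fell below 3 counts, with 0 and 2. Vehicle tumor 5, with a similar total of 14160269 counts, had 135 and 142 for these genes.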
